A study of Mus musculus with 2 samples.

Results

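The Ikaros family of zinc finger transcription factors has 5 genes in the mouse, Ikzf1, Ikzf2, Ikzf3, Ikzf4 and Ikzf5, and all 5 were followed here among the 21911 protein-coding genes of the annotation. The members were taken by name. Chromatin accessibility was measured by single cell ATAC-seq, in which a transposase cuts open chromatin and the freed fragments are sequenced with a barcode for each nucleus. Bone marrow of C57BL/6 mice was the source of the hematopoietic stem cells (HSCs), which were sorted as positive for Sca-1+, c-kit+ and CD150+ and as negative for Lin-, Flt3-, CD34-, CD48- and, as the labels write it, IL-7-. Young HSCs came from mice 10 weeks old and Aged HSCs from mice 20 months old, with no transgene, deletion or treatment named for either age. There was 1 library per age and no replicate, so no test between ages was possible. Every interval below is an exact 95% interval that covers counting error only, save those of sums over the 500-bp bins described below, which are too narrow. The age of the mice and the library cannot be told apart. The labels do not say how many mice were pooled for a library.

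Ikaros proteins bind DNA through zinc fingers near one end and pair with themselves and each other through zinc fingers at the other end. Ikzf1 encodes Ikaros, which primes stem and progenitor cells for the lymphoid lineages and recruits the NuRD chromatin remodeller and other corepressors. Ikzf2 encodes Helios, known from HSCs, early T cells and regulatory T cells. Ikzf3 encodes Aiolos, a factor of maturing B and T cells. Ikzf4 encodes Eos, known from regulatory T cells, and Ikzf5 encodes Pegasus, the most divergent member, which is broadly expressed.

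Sequences of 8 stretches are shown because the results turn on them. The first 3 are promoters of Ikzf1 and Ikzf5 from RefSeq (GRCm38.p6), which held promoters for 2 of the 5 genes, cut back to the bases before the start that no exon covers. The other 5 are accessible peaks of the same build, mm10, which are the 4 peaks past 1.5-fold among those with at least 100 fragments and 1 peak in Ikzf4 with 99 fragments. All are written 5′ to 3′ on the strand of the gene. Capitals mark exact matches to any of 8 short motifs searched on both strands, which were Ikaros (TGGGAA), a motif of GATA factors (AGATAA), RUNX (TGTGGT), ETS (ACCGGAAGT), PU.1 (GAGGAAGT), AP-1 (TGANTCA), E-box (CAGCTG) and GC box (GGGCGG). In the Ikzf4 peak downstream of the gene the last RUNX and E-box matches overlap.
Ikzf1 promoter, chr11:11685675-11685924, plus strand: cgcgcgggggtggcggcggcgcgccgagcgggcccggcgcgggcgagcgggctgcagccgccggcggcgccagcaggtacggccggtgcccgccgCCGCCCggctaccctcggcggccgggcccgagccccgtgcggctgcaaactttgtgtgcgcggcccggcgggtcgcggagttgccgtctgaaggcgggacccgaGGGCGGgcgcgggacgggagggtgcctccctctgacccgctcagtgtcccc
Ikzf1 promoter of an inner start in intron 1, chr11:11689927-11690176, plus strand: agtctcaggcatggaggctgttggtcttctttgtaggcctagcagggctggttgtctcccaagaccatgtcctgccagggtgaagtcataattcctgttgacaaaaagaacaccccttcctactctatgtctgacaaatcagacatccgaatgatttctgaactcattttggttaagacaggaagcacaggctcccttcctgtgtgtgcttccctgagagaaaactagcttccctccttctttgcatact
Ikzf5 promoter, between its start and that of Acadsb, chr7:131410522-131410600, minus strand: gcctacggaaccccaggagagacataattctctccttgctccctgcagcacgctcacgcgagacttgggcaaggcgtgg
Ikzf1 peak in intron 1, chr11:11689045-11689185, plus strand: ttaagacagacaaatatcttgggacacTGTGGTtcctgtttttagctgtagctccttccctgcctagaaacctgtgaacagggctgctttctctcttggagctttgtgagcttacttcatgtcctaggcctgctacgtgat
Ikzf2 peak in intron 3, chr1:69611400-69611663, minus strand: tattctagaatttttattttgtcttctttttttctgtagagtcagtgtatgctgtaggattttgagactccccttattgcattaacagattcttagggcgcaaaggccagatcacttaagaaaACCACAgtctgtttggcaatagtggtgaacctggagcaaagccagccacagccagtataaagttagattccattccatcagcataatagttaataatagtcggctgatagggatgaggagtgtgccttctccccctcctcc
Ikzf3 peak upstream of the gene, chr11:98588877-98589063, minus strand: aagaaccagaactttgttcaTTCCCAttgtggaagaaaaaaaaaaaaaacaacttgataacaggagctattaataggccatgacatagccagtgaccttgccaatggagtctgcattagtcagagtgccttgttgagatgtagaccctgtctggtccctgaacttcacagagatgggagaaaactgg
Ikzf4 peak downstream of the gene, middle 300 bases, chr10:128602700-128602999, minus strand: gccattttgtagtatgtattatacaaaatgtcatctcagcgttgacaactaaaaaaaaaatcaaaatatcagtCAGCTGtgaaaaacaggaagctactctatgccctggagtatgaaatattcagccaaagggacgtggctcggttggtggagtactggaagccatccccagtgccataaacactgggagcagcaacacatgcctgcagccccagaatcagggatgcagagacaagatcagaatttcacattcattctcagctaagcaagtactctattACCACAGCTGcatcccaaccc
Ikzf4 peak in intron 5, middle 300 bases, chr10:128636892-128637191, minus strand: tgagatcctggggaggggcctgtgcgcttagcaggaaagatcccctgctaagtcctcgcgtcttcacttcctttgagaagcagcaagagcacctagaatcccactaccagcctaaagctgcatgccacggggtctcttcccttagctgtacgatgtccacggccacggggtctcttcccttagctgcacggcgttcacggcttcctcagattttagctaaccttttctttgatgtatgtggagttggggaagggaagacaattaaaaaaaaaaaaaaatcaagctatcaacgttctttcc

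The Ikzf1 promoter was the richest of these in G and C, at 82.0% with 44 CG dinucleotides in 250 bases and 2 GC box matches. The inner Ikzf1 promoter held 47.6% G and C and 1 CG. A RUNX match lay in the Ikzf1 intron 1 peak, in the Ikzf2 intron 3 peak and in the downstream Ikzf4 peak, and an Ikaros match lay in the upstream Ikzf3 peak. Over the central 300 bp of all 166260 peaks, 28.1% held a RUNX match and 25.5% an Ikaros match. Among the 121 peaks in the windows of the 5 genes, which span each gene with 50 kb on either side, 31 or 25.6% held a RUNX match and 38 or 31.4% an Ikaros match. The shares for the other motifs, all peaks first and then the 121, were 13.9% and 11.6% for GATA, 0.297% and 1.65% for ETS, 7.85% and 9.09% for PU.1, 12.2% and 8.26% for AP-1, 18.3% and 16.5% for the E-box, and 14.4% and 13.2% for the GC box. None of the 8 motifs was found in the Ikzf4 intron 5 stretch or in the inner Ikzf1 promoter.

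After keeping called cells with 3000 to 20000 in-peak fragments, 4887 Young HSCs and 3405 Aged HSCs remained, with medians of 9890 and 11020 fragments per cell and 28 barcodes shared by the called cells of both libraries. The median enrichment of cuts near gene starts over those about 1 kb away was 5.32-fold in young and 4.92-fold in aged cells. Levels are given as FPM, the fragments with an end in a region per 1000000 fragments in peaks, and rest on 34676081 young and 26168614 aged in-peak fragments. Outside peaks the mean was 0.334 FPM in the young and 0.359 FPM in the aged library for each 2 kb. The promoters of 10 HSC markers summed to 212 FPM in Young HSCs and 214 FPM in Aged HSCs, with medians of 18.3 and 19.3 FPM per promoter. The 6 T cell marker promoters summed to 10.5 FPM in Young HSCs and 7.03 FPM in Aged HSCs. Only Lck among them had at least 100 fragments, at 5.71 and 4.81 FPM. Cd4 was at 2.11 and 0.726 FPM, from 73 and 19 fragments. The 6 B cell markers summed to 33.0 and 33.6 FPM. The sums for 6 markers each were 10.4 and 9.94 FPM for granulocytes and monocytes, 92.7 and 85.5 FPM for erythroid cells and 135 and 130 FPM for megakaryocytes. No marker promoter was at 0 in either library.

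The promoters of the 5 genes, taken as 1 kb on either side of the annotated start, differed little between ages. The promoter of Ikzf1 (ENSMUSG00000018654, chr11:11684003-11686003) held 657 young and 488 aged fragments, or 18.9 FPM (17.5 to 20.5) and 18.6 FPM (17.0 to 20.4). For Ikzf2 (ENSMUSG00000025997, chr1:69686245-69688245) there were 1422 and 997 fragments, or 41.0 FPM (38.9 to 43.2) and 38.1 FPM (35.8 to 40.5). The intervals of both genes overlapped between ages.

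Ikzf3 (ENSMUSG00000018168, chr11:98545031-98547031) had the least accessible promoter of the family, with 286 young and 235 aged fragments, or 8.25 FPM (7.32 to 9.26) and 8.98 FPM (7.87 to 10.2). The promoter of Ikzf4 (ENSMUSG00000002578, chr10:128644991-128646991) stood at 28.6 FPM (26.8 to 30.4) in Young HSCs and 27.1 FPM (25.1 to 29.2) in Aged HSCs, from 991 and 709 fragments. The promoter of Ikzf5 (ENSMUSG00000040167, chr7:131409521-131411521), which it shares with Acadsb, a gene of branched-chain acyl-CoA breakdown read in the other direction, stood at 42.1 FPM (40.0 to 44.3) and 42.2 FPM (39.8 to 44.8), from 1460 and 1105 fragments. At these starts the order from Ikzf5 through Ikzf2, Ikzf4 and Ikzf1 to Ikzf3 was the same in both libraries. Only the intervals of Ikzf5 and Ikzf2 overlapped within a library. Another start of Ikzf1, described below, would place it before Ikzf4.

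**Figure D1:**
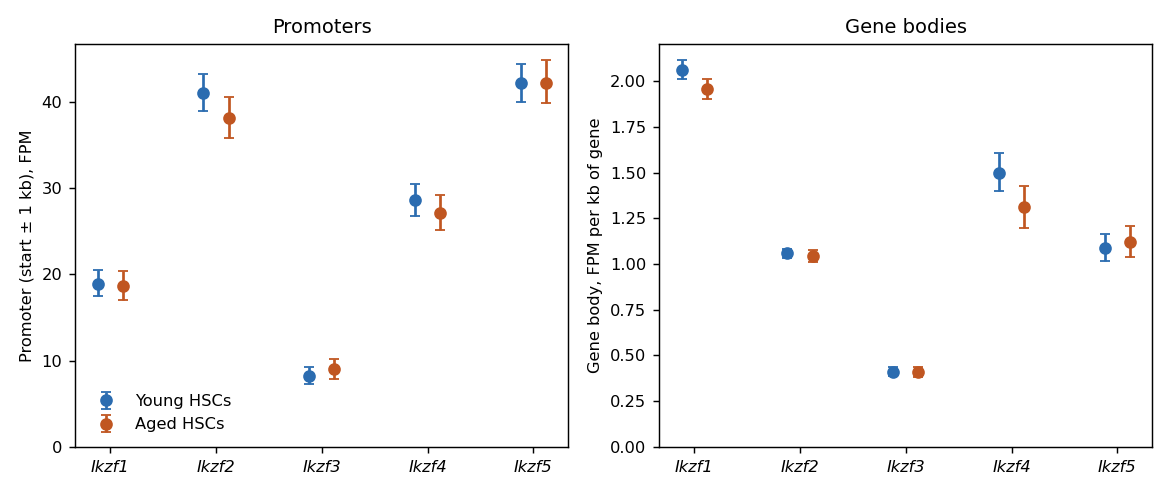
Accessibility of the promoters (left, FPM) and gene bodies (right, FPM per kb of gene) of the 5 Ikaros family genes in Young HSCs (blue) and Aged HSCs (orange). Points are the values of the 1 library of each age and bars are exact Poisson 95% intervals, with Ikzf3 lowest in both panels at 8.25 and 8.98 FPM for its promoter.

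On the log2 scale of aged over young, the promoter ratios were -0.022 (-0.19 to 0.15) for Ikzf1, -0.11 (-0.22 to 0.012) for Ikzf2, 0.12 (-0.13 to 0.38) for Ikzf3, -0.076 (-0.22 to 0.064) for Ikzf4 and 0.0045 (-0.11 to 0.12) for Ikzf5. All 5 intervals held 0. A ratio of 0.32 or more in size on the log2 scale was taken as the fold for promoters and gene bodies. None of the 5 was past it, against 8.36% of 15003 protein-coding promoters with at least 100 fragments that were past the fold toward Aged HSCs and 2.59% toward Young HSCs. The median of those 15003 promoters was -0.054. Among them Ikzf2 stood at percentile 31.9, Ikzf4 at 42.0, Ikzf1 at 59.9, Ikzf5 at 66.1 and Ikzf3 at 81.5. Another total for the scaling shifts all genes alike, and the ratios of Ikzf1 and Ikzf5 were close enough to 0 to change sign with it. Ikzf1 had 0.033 when scaled to promoter fragments, and Ikzf5 -0.029 when scaled to all nuclear fragments.

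**Figure D2:**
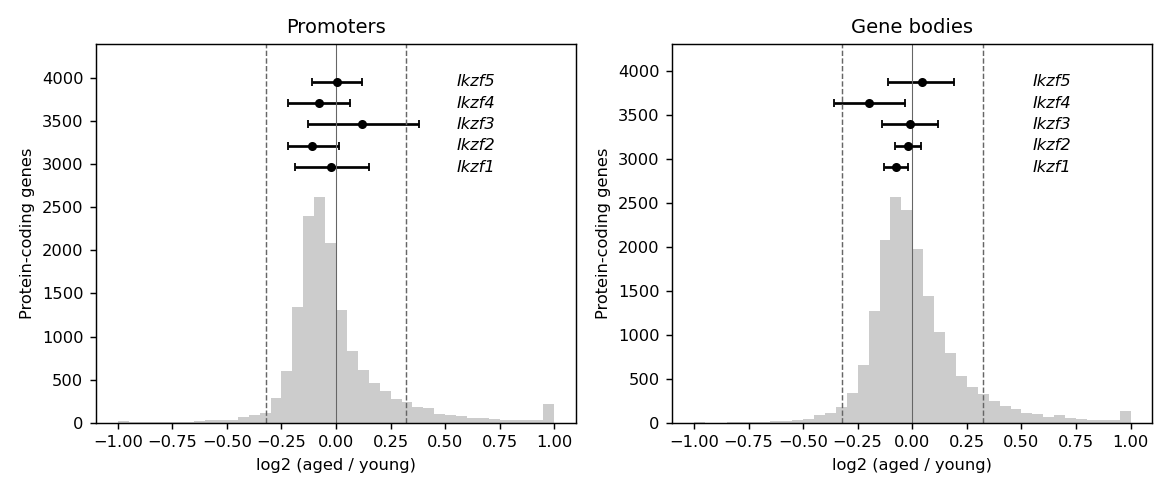
Distribution over protein-coding genes with at least 100 fragments of the log2 ratio of aged over young for promoters (left) and gene bodies (right), with ratios beyond 1 in either direction in the outermost bars. Black points are the 5 Ikaros family genes with exact 95% intervals, and dashed lines mark the fold of 0.32 on the log2 scale, which no member passed in either panel.

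The promoters were also compared by the share of cells in which they were cut. Each cell was thinned to 3000 in-peak fragments, and 4789 Young HSCs and 3271 Aged HSCs were deep enough for this. A fragment at the Ikzf5 promoter was found in 11.5% (10.6 to 12.4) of Young HSCs and 12.3% (11.2 to 13.5) of Aged HSCs. At the Ikzf2 promoter the shares were 11.2% (10.4 to 12.2) and 9.78% (8.79 to 10.9), and at that of Ikzf4 8.50% (7.72 to 9.32) and 8.07% (7.16 to 9.06). Ikzf1 was at 5.28% (4.67 to 5.95) and 5.41% (4.66 to 6.24), and Ikzf3 at 2.11% (1.72 to 2.56) and 2.57% (2.05 to 3.17). The intervals of the ages overlapped for all 5, and cells of 1 library are not replicates. Without thinning the shares ran from 5.46% for Ikzf3 to 25.4% for Ikzf5 in Young HSCs and from 6.61% to 26.9% in Aged HSCs. Ikzf1 was then at 12.2% and 13.0%, Ikzf2 at 24.4% in both ages and Ikzf4 at 18.2% and 18.4%. Shares without thinning also follow depth, and Aged HSCs had a median of 11020 fragments per cell, against 9890 in Young HSCs. The lower aged shares of Ikzf2 and Ikzf4 were seen with thinning. Their promoter ratios above, scaled to in-peak fragments, were also below 0, with intervals that held 0.

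Several members have more than 1 annotated start, and the choice of start changed the level of Ikzf1. Its outermost start lies just before the accessible stretch whose sequence was shown first. Around the start 922 bp further in, Ikzf1 held 1304 young and 936 aged fragments, 37.6 and 35.8 FPM, about as much as the promoter of Ikzf2, with a log2 ratio of -0.072 (-0.19 to 0.050). For Ikzf3, Ikzf4 and Ikzf5 the outermost start and those within 1 kb of it gave nearly equal values.

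The starts of Ikzf2 differed among themselves. Its outer start and the one 105 bp from it had log2 ratios of -0.11 and -0.12. Around the inner start 1945 bp downstream there were 386 young and 384 aged fragments, or 11.1 and 14.7 FPM, a log2 ratio of 0.40 (0.19 to 0.61). The inner starts at 1359, 1424 and 2709 bp gave 0.37, 0.35 and 0.48, and their windows overlap in part, so that they share fragments. These 4 of 7 annotated starts were past the fold of 0.32 toward Aged HSCs, while the start at 3088 bp had 0.076 (-0.14 to 0.28). A window from 1 to 3 kb downstream of the start, chosen after these values were seen, held 370 young and 386 aged fragments, or 10.7 and 14.8 FPM, a log2 ratio of 0.47 (0.26 to 0.68). The same window of 9060 genes with at least 100 fragments had a median of 0.059, with 18.7% past that fold toward Aged HSCs and 7.23% toward Young HSCs, and Ikzf2 stood at percentile 90.3. Of the other members with enough fragments there, Ikzf1 had -0.094 (-0.24 to 0.055) and Ikzf5 0.068 (-0.49 to 0.61).

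The gene bodies add the introns. Ikzf1 was the most accessible member per kb of gene. Its body of 87.9 kb held 6284 young and 4500 aged fragments, or 2.06 and 1.96 FPM per kb, a log2 ratio of -0.076 (-0.13 to -0.020). Ikzf2, the longest member at 156 kb, had 5720 and 4260 fragments, or 1.06 and 1.04 FPM per kb, and a log2 ratio of -0.019 (-0.077 to 0.038). The body of Ikzf3 was the least accessible of the family per kb, at 0.412 FPM per kb in Young HSCs and 0.408 FPM per kb in Aged HSCs. This was 2.47 and 2.27 times the mean outside peaks and at percentile 30.7 of all gene bodies in level. Its log2 ratio was -0.012 (-0.14 to 0.12).

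The bodies of Ikzf4 and Ikzf5 are short, at 15.1 and 21.9 kb. Ikzf4 had 785 young and 517 aged fragments, or 1.49 and 1.30 FPM per kb, a log2 ratio of -0.20 (-0.36 to -0.034), the lowest of the family. Ikzf5 had 825 and 642 fragments, or 1.09 and 1.12 FPM per kb, and a log2 ratio of 0.045 (-0.11 to 0.19). No member was past the fold, against 8.31% of 17668 gene bodies toward Aged HSCs and 2.58% toward Young HSCs, whose median was -0.022. Ikzf4 stood at percentile 9.24 of those genes, Ikzf1 at 34.7, Ikzf2 at 50.9, Ikzf3 at 52.8 and Ikzf5 at 66.0. Under scaling to promoter fragments the ratios of Ikzf1 and Ikzf4 were -0.021 and -0.14, while those of Ikzf2 and Ikzf3 turned to 0.036 and 0.043.

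The lower value of Ikzf4 sat in 1 place. The first 2 kb of the gene had 580 young and 418 aged fragments and a log2 ratio of -0.065 (-0.25 to 0.12), and the rest had 205 and 99 fragments and a ratio of -0.64 (-1.01 to -0.29). A peak of 732 bp in intron 5 (chr10:128636676-128637407), 8950 bp from the start, held 86 young fragments from 85 cells and 13 aged fragments from 13 cells, or 2.48 and 0.497 FPM. This was a log2 ratio of -2.23 (-3.29 to -1.47). Without that peak the gene body ratio was -0.065 (-0.23 to 0.10). The peak had 1 fragment too few for the minimum of 100 and was singled out after its values were seen. Of the 97394 peaks with at least 100 fragments, 0.0175% had a ratio as low, but the peak is not in that set. Other window peaks with too few fragments also had large ratios. They ran from -2.05, with 32 young and 5 aged fragments, to 1.77, with 6 and 17, both in the window of Ikzf3.

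The share of cells with a fragment in the Ikzf4 intron 5 peak was 1.74% (1.39 to 2.15) of Young HSCs and 0.382% (0.203 to 0.652) of Aged HSCs. Its fragments were spread over the young cells, with at most 2 in a cell. Of these fragments 53.5% were shorter than the DNA wound around a nucleosome, against 59.8% of all fragments of the kept young cells. The sums of T cell, granulocyte and monocyte, erythroid and megakaryocyte marker promoters were lower in the aged library, as given above. Those of HSC and B cell markers were not. The relative drop was largest for the T cell sum, from 10.5 to 7.03 FPM. The only T cell marker promoter with at least 100 fragments, Lck, had a log2 ratio of -0.24 (-0.58 to 0.084). The other T cell marker promoters, with fewer fragments, were all below 0 as well. They ran from -0.50 (-1.55 to 0.40) for Cd3e to -1.18 (-2.55 to -0.16) for Cd3g and -1.48 (-2.35 to -0.79) for Cd4. The 85 young cells with a fragment in the peak were somewhat deeper than the other 4802, with medians of 10685 and 9861 fragments. Fragments within the bodies of the T cell markers were found in 62.4% (51.2 to 72.6) of the 85 cells and 56.8% (55.4 to 58.2) of the others. For granulocyte and monocyte markers the shares were 56.5% (45.3 to 67.2) and 44.2% (42.8 to 45.6), for B cell markers 81.2% and 79.4%, for erythroid markers 61.2% and 57.4% and for megakaryocyte markers 92.9% and 94.7%. HSC marker fragments were found in 84 of the 85 cells and 4801 of the others. The 13 aged cells had a median of 16526 fragments, against 11017 in the other aged cells. Fragments of the lists were found in 10 of the 13 for T cell markers, 8 for granulocyte and monocyte markers, 12 for B cell markers, 7 for erythroid markers and all 13 for megakaryocyte and HSC markers, against 55.7%, 43.9%, 80.9%, 57.3%, 95.5% and 100% of the other aged cells. Shares of 13 cells are imprecise, and that of the 7 cells ran from 25.1% to 80.8%. The part of other cell types and of depth in the difference at this peak was not tested. The printed middle of the peak holds 11 CG dinucleotides.

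**Figure D3:**
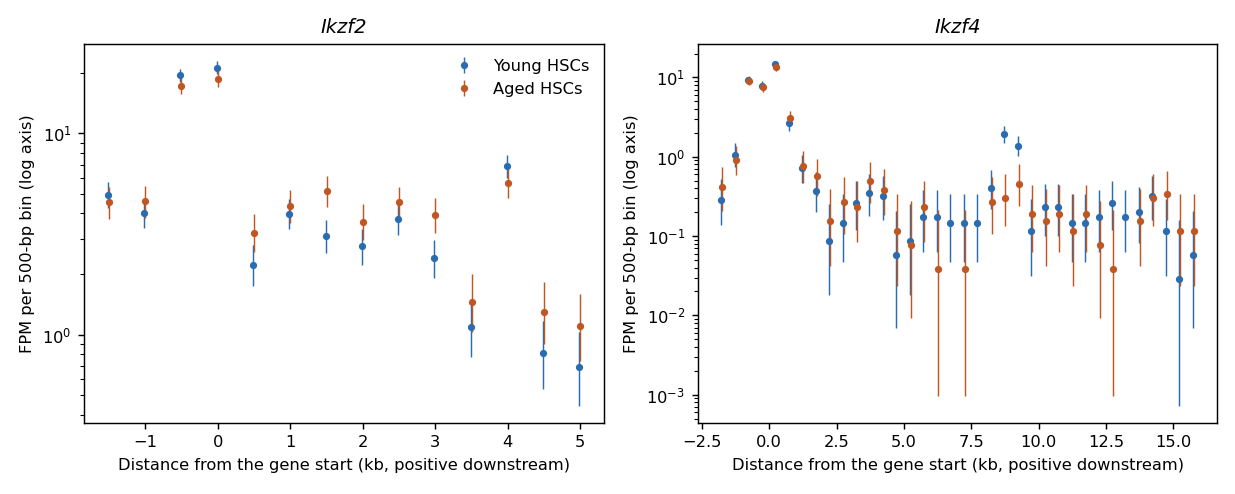
FPM per 500-bp bin on a log axis around the starts of Ikzf2 (left) and Ikzf4 (right) in Young HSCs (blue) and Aged HSCs (orange), with exact Poisson 95% intervals and bins without fragments left out. Aged values lie above young ones just inside Ikzf2, where the window from 1 to 3 kb had 10.7 FPM in young and 14.8 FPM in aged, and below them at the intron 5 peak of Ikzf4 near 9 kb.

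Peaks were then compared one by one. Of the 121 peaks in the 5 windows, 69 had at least 100 fragments, and 3 of these were past 1.5-fold toward Aged HSCs and 1 toward Young HSCs. Over all 97394 peaks with at least 100 fragments the shares were 9.60% and 4.01%. Which direction had more peaks changed with the counting. In thinned cells 3 were toward Aged HSCs and 8 toward Young HSCs. The counts were 3 and 4 with fragments shorter than a nucleosome's DNA, and 2 and 3 when cut sites were counted. Shares over all peaks are not given for these countings, so the change cannot be read as particular to these windows. Of the 69 peaks 28 had a ratio above 0, against 50.3% of all peaks, and their median was -0.086, against 0.0027 for all peaks. These medians mix kinds of peaks. At transcript starts the median was -0.12 for the 6 peaks of the members and -0.027 for the 18 of other genes, against -0.031 for all 29521 such peaks. Away from starts it was -0.14 for the 23 peaks inside the members, with 8 above 0, and 0.0057 for the 22 outside them, with 11 above 0, against 0.025 for all 67873 such peaks, of which 53.1% were above 0.

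Among the peaks with at least 100 fragments, the one with the highest ratio lay in Ikzf2, 75714 bp from the start in intron 3. It held 36 young and 67 aged fragments, or 1.04 and 2.56 FPM, a log2 ratio of 1.28 (0.70 to 1.93) at percentile 98.2 of peaks. A fragment in it was found in 0.737% (0.516 to 1.02) of Young HSCs and 1.94% (1.5 to 2.46) of Aged HSCs. With the young level in both libraries it would not have reached 100 fragments, so its place among these peaks rests on its aged fragments. The peak in intron 1 of Ikzf1, 4112 bp from the start, had 68 and 82 fragments and a log2 ratio of 0.67 (0.19 to 1.16). The upstream peak in the window of Ikzf3, at -42939 bp from its start, had 114 and 133 fragments and a log2 ratio of 0.63 (0.26 to 1.0). It lies near the start of Ormdl3, a regulator of sphingolipid synthesis. In cells thinned to 3000 in-peak fragments its ratio was 0.24.

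The only peak with enough fragments that was past 1.5-fold toward Young HSCs lay downstream of Ikzf4, at chr10:128602645-128603053 in intergenic sequence, with 80 young and 31 aged fragments, or 2.31 and 1.18 FPM. Its log2 ratio was -0.93 (-1.61 to -0.35), at percentile 1.07. The peak is 43142 bp from the Ikzf4 start and lies between the starts of 2 other genes, Rps26 and Erbb3. Which gene it acts on, if any, was not tested.

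**Figure D4:**
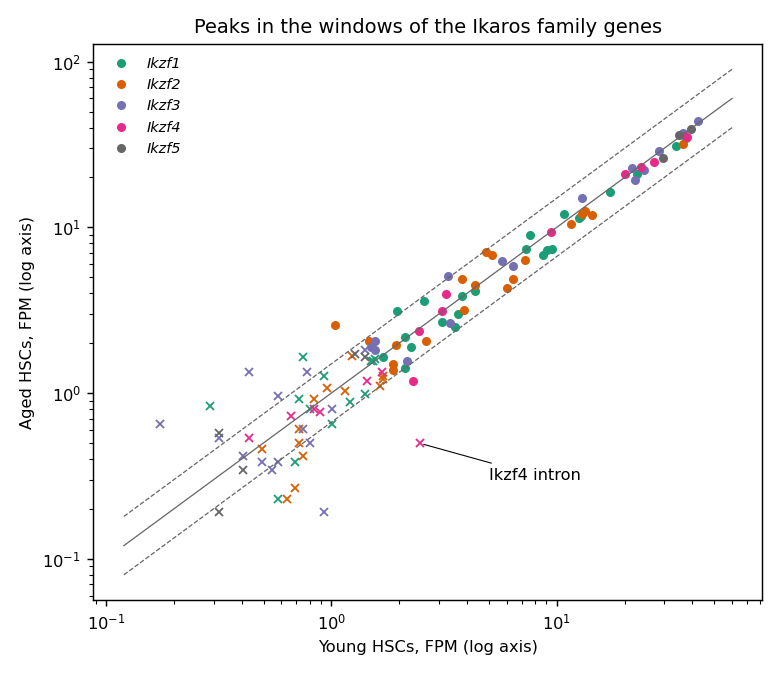
FPM of the 121 peaks in the windows of the Ikaros family genes in Young HSCs (horizontal, log axis) and Aged HSCs (vertical, log axis), coloured by gene, with circles for peaks of at least 100 fragments and crosses for the others. The solid line is equality and the dashed lines mark 1.5-fold. Peaks above 10 FPM stay within the lines, and the Ikzf4 intron 5 peak lies lowest below them among peaks over 2 FPM in young.

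The strongest peaks of each window all stayed within 1.5-fold. At Ikzf1 they were the promoter peak of Fignl1, a gene of DNA repair, at 37.5 young and 34.4 aged FPM, the own promoter peak at 34.0 and 31.1 FPM, and a peak inside Fignl1 103763 bp from the Ikzf1 start at 22.8 and 21.1 FPM. At Ikzf2 they were its promoter peak at 36.2 and 32.0 FPM, with a log2 ratio of -0.17 (-0.30 to -0.048), a peak beyond the end of the gene at 14.3 and 11.9 FPM near the start of the unnamed transcript Gm29114, and an intron 3 peak at 13.3 and 12.5 FPM. The strongest peaks at Ikzf3 lay in or at other genes and stayed level, and which gene they act on was not tested. They were a peak in Ormdl3 at 42.5 and 43.9 FPM, the peak at Zpbp2, a gene of sperm, at 36.5 and 37.3 FPM, and the peak at Mien1 at 28.5 and 29.1 FPM.

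At Ikzf4 the strongest peak was at the start of Rps26, a gene of the small ribosomal subunit, at 37.9 and 35.1 FPM, followed by the own promoter at 27.0 and 24.9 FPM and the start of Suox, which encodes sulfite oxidase, at 23.6 and 23.3 FPM. At Ikzf5 the own promoter peak stood at 39.5 and 39.2 FPM, the start of 2310057M21Rik at 35.0 and 36.0 FPM and that of Pstk, a kinase of selenocysteine synthesis, at 29.7 and 26.4 FPM. Ikzf5 had no peak of its own inside the gene outside the promoter.

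Most of the stronger peaks within Ikzf1 had ratios below 0. Of the 12 such peaks with at least 100 fragments and away from the transcript starts of the GENCODE annotation, 3 had a ratio above 0, against 53.1% of all peaks away from starts, and the median was -0.26, while their range ran from -0.57 to 0.67. The peak over the inner promoter in intron 1, printed above, whose start is from RefSeq and is not among the GENCODE starts used here, was counted with them and had 122 and 66 fragments and -0.47 (-0.93 to -0.037). That of intron 3 at 45309 bp had 330 and 194 fragments and -0.36 (-0.62 to -0.10). Both were chosen after their values were seen. Of the 6 peaks inside the gene with fewer fragments, 5 had a ratio above 0. Outside the gene and away from any gene start, 3 of 7 peaks with enough fragments were above 0, with a median of -0.074.

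In Ikzf2 the peaks inside the gene were mixed. Of 10 with enough fragments 5 had a ratio above 0, and the median was -0.037. The other peak at its starts, over coding sequence 3934 bp from the outer start, had 222 young and 127 aged fragments and a log2 ratio of -0.39 (-0.73 to -0.079). Inside Ikzf3 a single peak reached 100 fragments, with 116 young and 69 aged. Outside Ikzf3 and away from starts, 6 of 7 peaks with enough fragments were above 0, against 53.1% of all peaks away from starts, with a median of 0.22.

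Bins of 500 bp, which need no peak call, were counted apart for gene bodies and for the flanks of 50 kb. Of 61 bins in gene bodies with at least 100 fragments 4 were past 1.5-fold toward Aged HSCs and 0 toward Young HSCs. In the flanks 0 of 92 were past it toward Aged HSCs and 1 toward Young HSCs. Over the genome the shares among 182098 bins were 9.03% and 2.89%. Over bodies and flanks, 9 bins were past it in each direction with fragments shorter than a nucleosome's DNA. In thinned cells 9 were toward Aged HSCs and 7 toward Young HSCs. Shares over the genome are not given for these 2 countings. The 4 bins were the Ikzf1 bin at 4248 bp and the Ikzf2 bins at 1494, 2994 and 30494 bp from the start, and the 1 bin was that of the downstream Ikzf4 peak.

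The Ikzf2 bin at 1494 bp held 107 young and 135 aged fragments, or 3.09 and 5.16 FPM, and that at 2994 bp 83 and 103 fragments, or 2.39 and 3.94 FPM. Sums over bins count a fragment 2 times where its ends lie in different bins, so their levels are too high and their intervals too narrow. For the body of Ikzf1 the bins summed to 7832 young fragments, against 6284 counted once. Summed in this way over the flanks, Ikzf2 was at 136 and 125 FPM, a log2 ratio of -0.12 (-0.18 to -0.053). Ikzf4 was at 230 and 223 FPM, a ratio of -0.040 (-0.089 to 0.0091). The flanks of Ikzf1, Ikzf3 and Ikzf5 had ratios of 0.0080 (-0.045 to 0.060), 0.030 (-0.010 to 0.070) and -0.019 (-0.081 to 0.042). With bins within 1 kb of other genes' starts left out, the ratios were 0.035 (-0.026 to 0.10) for Ikzf1, -0.12 (-0.19 to -0.045) for Ikzf2, 0.057 (0.0027 to 0.11) for Ikzf3 and -0.073 (-0.16 to 0.013) for Ikzf4. Ikzf5 changed sign to 0.13 (-0.017 to 0.28), from bin counts that summed to 849 young and 701 aged.

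**Figure D5:**
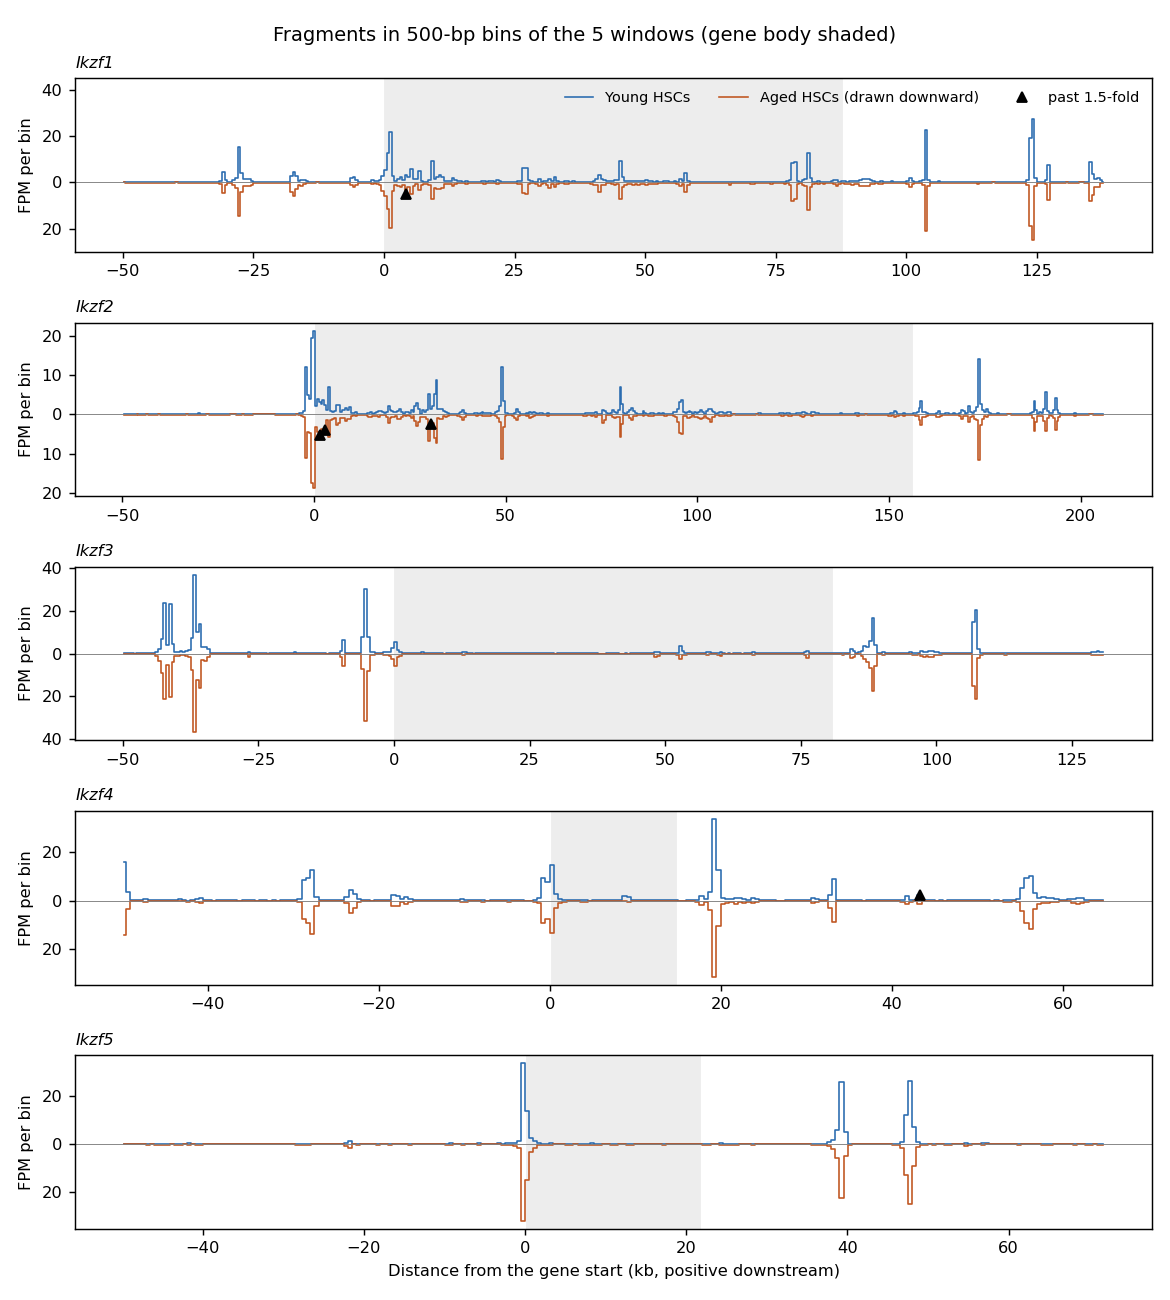
FPM per 500-bp bin in the windows of the 5 genes against the distance from the gene start in kb, positive downstream, with Young HSCs drawn upward in blue and Aged HSCs downward in orange. Gene bodies are shaded and triangles mark the 5 bins with at least 100 fragments past 1.5-fold, while the tall peaks mirror each other in both ages.

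Genes that work with Ikaros proteins or lie under their control were compared in 5 lists. All 17 genes of NuRD and other corepressors had at least 100 fragments, none was past the promoter fold, against 8.36% of all promoters toward Aged HSCs and 2.59% toward Young HSCs, and 2 had a ratio above 0. The median was -0.11, against -0.054 for all promoters, where 5221 of 15003 were above 0. The promoters of the list were stronger, with medians of 44.2 young and 43.4 aged FPM, against 14.2 and 15.1 FPM over all 21911 promoters. The comparison was not matched for level, so it cannot be read as particular to the list. The highest were Mta1 at 0.033 and the deacetylase Hdac2 at 0.0082, and the lowest were the corepressor Ctbp1 at -0.26 (-0.36 to -0.17) and the remodeller Chd3 at -0.24 (-0.47 to -0.013). The cereblon ubiquitin ligase takes up some Ikaros proteins for degradation in human cells in the presence of thalidomide analogs. Of its 5 genes 4 had enough fragments, with a median of -0.14. None was past the fold, which with 4 genes is little to set against those shares. Crbn, which encodes cereblon, had -0.018, the scaffold Cul4a -0.12, the adaptor Ddb1 -0.15 and the RING subunit Rbx1 -0.17.

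Of 12 genes of lymphoid priming and early B cells, 9 had enough fragments, with a median of -0.078. None of them was past the promoter fold toward Aged HSCs, against 8.36% of all promoters, and 3 were past it toward Young HSCs, against 2.59%. Flt3, the receptor of a lymphoid-priming cytokine that the sort used to exclude cells, was at 33.8 FPM in Young HSCs and 25.5 FPM in Aged HSCs, a log2 ratio of -0.41 (-0.55 to -0.27). Il7r, the IL-7 receptor, had 79 and 40 fragments and -0.56 (-1.16 to -0.0094). Per the study's methods, the sort used this receptor too to exclude cells. Blnk, an adaptor of B cell receptor signalling, had 242 and 138 fragments and -0.40 (-0.72 to -0.10). Pax5 and Ebf1, the factors that commit cells to the B lineage, were highest at 0.27 (-0.15 to 0.67) and 0.16 (-0.039 to 0.35).

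Of 8 Notch and early T genes 6 had enough fragments, and the median was -0.020. Gata3, a factor of T cells that HSCs also use, was the 1 gene past the fold, toward Aged HSCs, against 8.36% of all promoters. It was at 13.5 FPM in Young HSCs and 18.3 FPM in Aged HSCs, a log2 ratio of 0.44 (0.25 to 0.63). Tcf7 had 0.026, and the receptors Notch1 and Notch3 were lowest at -0.082 and -0.076. Among 5 stem cell genes with enough fragments of 6, none was past the fold, against 8.36% and 2.59% of all promoters, and the median was -0.074. Gata2 had 0.21 (0.044 to 0.37), Meis1 0.054, Hlf -0.080 and Kit, the receptor of stem cell factor, -0.10.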

How the data were processed

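Single cell ATAC-seq of 2 libraries was used, grouped by the age in the labels. Per the study's methods, the authors aligned reads to mm10 with Cell Ranger ATAC and listed unique fragments by barcode, and their deposited files hold counts of read pairs per fragment and of fragments per barcode, not normalized. The libraries held 53786133 young and 48333115 aged unique fragments. Called cells with 3000 to 20000 in-peak fragments per the authors' table were kept. Doublets, marked from cells with many loci of 3 or more overlapping fragments, were 4.42% of young and 7.49% of aged cells and were kept. The authors' peak lists were not used here.

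Peaks were called on cut sites of the kept cells and merged over libraries (Poisson against the local mean, q of 0.001). Each fragment with an end in a region added 1 to its count, so sums over bins hold some fragments 2 times. Ratios are log2(aged / young) of values scaled to in-peak fragments with a pseudocount of 1 fragment. Intervals are exact Poisson for levels and Clopper-Pearson for shares and ratios. Genes follow GENCODE M21 on GRCm38. The calculation of ratios and their intervals, not the counting of fragments, was tested on simulated promoter counts drawn with counting error only. Python 3.11.15, numpy 2.4.6, scipy 1.17.1, numba 0.67.0 and pysam were used.

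The members and lists were chosen with earlier results of these data known. All 5 members were named, with the 2 highest and 2 lowest genes of each list among promoters of at least 100 fragments, and in each window the 3 strongest peaks and up to 2 peaks past 1.5-fold in each direction. No gene was named for a like pattern, since 2 libraries give each gene a single difference.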

Additional observations from a re-analysis of the deposited data

How the results depend on the processing

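No paired analysis was possible because each age has a single library. Promoter ratios of all 5 genes stayed within their counting intervals under every alternative tried, as did the gene body ratios of Ikzf1 and Ikzf3. The exceptions among gene bodies were Ikzf2 at -0.10 with fragments shorter than a nucleosome's DNA, and, without the first 2 kb, Ikzf4 at -0.64 and Ikzf5 at -0.11. The counts past the fold were small and moved. Bins toward Aged HSCs, 4 as reported, were 9 when scaled to promoter fragments, with short fragments or in thinned cells, 8 by cut sites, 7 without marked doublets, 2 from 200 fragments and 0 at a fold of 2. Bins toward Young HSCs, 1 as reported, were 9 with short fragments, 7 in thinned cells, 2 without doublets or with bins of 1000 bp, and 0 from 200 fragments, at a fold of 2 or within 25 kb. Peaks toward Aged HSCs, 3 as reported, were 1 from 200 fragments or at a fold of 2. Peaks toward Young HSCs, 1 as reported, were 8 in thinned cells, 4 with short fragments, 3 by cut sites, 2 when scaled to all nuclear fragments, with all called cells or without doublets, and 0 from 200 fragments or at a fold of 2. Thinning and the length limit leave fewer fragments in each region. Shares over all peaks and bins are not given for the alternatives, so these moves cannot be read as particular to the 5 windows. Over the alternatives the median promoter ratio of the corepressor list ran from -0.14 (all nuclear fragments) to -0.056 (promoter fragments), that of the cereblon ligase from -0.17 (all nuclear fragments) to -0.053 (thinned cells), and that of lymphoid genes from -0.22 (short fragments) to -0.023 (promoter fragments). The medians of the Notch and early T list, from -0.061 (short fragments) to 0.045 (thinned cells), and of stem cell genes, from -0.11 (all nuclear fragments) to 0.0030 (2.5 kb on either side), changed sign. Over 8 recounts the Ikzf4 intron 5 peak ran from -2.54 to -1.93, the inner Ikzf2 start at 1945 bp from 0.32 to 0.46 and the Ikzf2 intron 3 peak from 1.24 to 1.55. Recounts of the other inner Ikzf2 starts are not given, and that at 3088 bp had more fragments and a ratio of 0.076. The recounts of the Ikzf4 intron 5 peak, the gene body without it and the window from 1 to 3 kb were chosen after seeing the data.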
